A study of Homo sapiens with 9 samples.

Results

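The guides described here target the scaffolds of the cullin-RING ubiquitin ligases and the proteins bound to them. They were chosen by target gene, as the guides against CUL1, CUL2, CUL3, CUL5, CUL7, CUL9, RBX1, RNF7, SKP1, CAND1 and CAND2. The rule uses no measured value, but earlier results of these data were known when it was set. These are 110 of the 11170 guides of the screen, 10 for each of 11 of its 1117 target genes. The choice also asked for guides against subunits of the COP9 signalosome, with symbols that begin with COPS or read GPS1. It found 0 such genes in the table used here, so the signalosome is not analysed here. CUL4A and CUL4B were left out of the choice.

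The screen was run in U251, an established human glioma line, with cells that stably expressed sgRNAs. DNA was sequenced from 3 libraries each at 0, 200 and 1500 µM temozolomide, a DNA-alkylating drug, and the treated cells had 72 hours of it. All cells were grown in DMEM with serum, so the groups differ by dose as far as the labels state. No time is given for the 0 µM libraries, so a difference in time in culture could not be told apart from dose. Titles state the doses in µM, whereas the protocol text states these figures in nM, so the unit only labels the doses here. The labels state neither the nuclease nor whether the 3 replicate numbers of a dose mark separate cultures, and p-values speak only of the spread among the libraries, which may be technical. DNA counts carry no expression, so the identity of the line could not be checked against markers.

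A cullin-RING ligase is built on a long cullin scaffold. A small RING protein, RBX1 or RNF7, sits at one end and recruits the ubiquitin-carrying enzyme, and adaptors at the other end hold exchangeable substrate receptors. CUL1 binds F-box proteins through the adaptor SKP1, CUL2 binds VHL-type receptors through elongins, CUL3 binds BTB proteins directly, and CUL5 binds SOCS-box proteins and pairs with RNF7. Attachment of the ubiquitin-like protein NEDD8 switches a cullin on, and CAND1 binds cullins that lack NEDD8 and lets receptors exchange. Several of these subunits are needed for the growth of many cultured human cell lines. The table gives guide names without guide sequences.

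Total counts per library lay between 1852340 and 2790563, and the 110 guides together held 0.491% to 0.822% of them (exact Clopper-Pearson bounds of 0.481% for the lowest and 0.834% for the highest library, counting error only). Levels are given below as normalised CPM, a guide's count relative to its library's total after scaling by TMM factors of 0.824 to 1.15. A count of 0 allows up to 3 counts, or 1.06 to 1.83 normalised CPM depending on the library. A single guide against another gene, UBE2A.7, took 4.97% to 18.6% of the counts at 1500 µM and 0.155% to 1.13% at 0 µM, and its part in the values below was not tested beyond the change of scaling. Libraries that share a replicate number were more alike than libraries that share a dose. Across 93 member guides, levels as log2(normalised CPM + 1) correlated at 0.65 to 0.87 between libraries of the same number and at 0.35 to 0.63 between libraries of the same dose, a description over guides of shared libraries.

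The median of the 110 member guides lay below the median of all guides in every library, with or without drug. That did not hold for each member gene. The median guide of CUL9, and that of RNF7, lay above the median of all guides in some libraries and below it in others. The median member guide had 18.5 ± 1.30, 19.8 ± 1.95 and 21.4 ± 1.31 normalised CPM at 0, 200 and 1500 µM (SD, n = 3 libraries), against 42.1 ± 1.65, 42.9 ± 1.74 and 44.4 ± 0.957 for the median of all guides. Between 18 and 27 of the 110 guides were at 0 counts in a library, or 16.4% to 24.5%, against 10.03% to 15.2% of all guides. In all 9 libraries 54 member guides had a count above 0, or 49.1%, against 67.6% of all guides. Whether these guides were already scarce in the plasmid pool was not tested, since no pool was analysed here and no library is labelled as taken before treatment.

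The scarcity was uneven and lay mostly in CUL2, RBX1 and CUL1. Over 10 guides and 9 libraries, 90 counts per gene, RBX1 had 44 zeros, CUL1 41 and CUL2 38, whereas the other member genes had 5 to 18 and the median gene of the screen had 7. Of 1117 genes, 37 had as many zeros as RBX1 or more, 50 as many as CUL1 or more and 61 as many as CUL2 or more. By mean summed level at 0 µM, CUL2 and RBX1 were among the lowest 111 genes of the screen, and the other 9 member genes were not.

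CUL2, the scaffold of the ligase that holds the von Hippel-Lindau receptor, was the scarcest member. Its 10 guides summed to 81, 111 and 183 counts at 0 µM in replicates 1, 2 and 3, to 220, 52 and 407 at 200 µM, and to 201, 88 and 331 at 1500 µM. The 3 doses overlapped, and replicate 3 was the highest at every dose. The summed level was 64.2 ± 22.4, 89.2 ± 58.7 and 84.3 ± 49.6 normalised CPM at 0, 200 and 1500 µM (SD, n = 3), against a median gene of 909, 815 and 811 normalised CPM. CUL2 ranked between 4 and 53 from the lowest of 1117 genes in single libraries. CUL2.5 held 59.6%, 66.1% and 50.2% of the CUL2 counts of replicate 3 at 0, 200 and 1500 µM, and CUL2.1 held 51.1% in replicate 2 at 1500 µM. CUL2.7 was at 0 in all 9 libraries, and 7 of the 10 guides had enough counts to be tested.

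RBX1, the RING protein of most cullins, came next, and its replicates disagreed more. At 0 µM its guides summed to 781, 358 and 137 counts. At 200 µM they summed to 747, 535 and 243, and at 1500 µM to 616, 416 and 202, so replicate 1 was highest and replicate 3 lowest at each dose. The mean level was 238 ± 212, 231 ± 128 and 168 ± 73.1 normalised CPM (SD, n = 3). Few guides carried it. RBX1.7 held 66.2% of the RBX1 counts of replicate 1 at 0 µM and 65.7% of those of replicate 1 at 200 µM, while RBX1.2 held 53.5% in replicate 3 at 200 µM and 68.3% in replicate 3 at 1500 µM. Of the 10 guides, 5 could be tested.

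RNF7, the RING partner of CUL5, stood above RBX1 in 8 of the 9 libraries. At 0 µM it had 613, 1264 and 762 counts in replicates 1, 2 and 3. At 200 µM it had 1009, 1158 and 1218, and the 1500 µM libraries held 1519, 1369 and 1070. The exception was replicate 1 at 0 µM, where RBX1 had 781. The mean levels were 452 ± 134, 492 ± 94.0 and 549 ± 102 normalised CPM (SD, n = 3). The ranges of mean ± SD of RNF7 and RBX1 overlapped at 0 µM and did not at 200 and 1500 µM. Counts were spread over guides, with the most abundant RNF7 guide at 20.03% to 39.0% of the gene's counts.

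CUL1, the scaffold of the SCF ligases, showed a split between replicates that was larger than any difference between doses. Its summed counts in replicate 2 were 5776, 3443 and 3139 at 0, 200 and 1500 µM. Replicate 1 had 224, 490 and 421 counts, and replicate 3 had 260, 321 and 249. The guide CUL1.9 made up most of the split. It had 4689, 2942 and 2838 counts in replicate 2, or 81.2%, 85.4% and 90.4% of the gene's counts, against 0, 44 and 16 counts in replicate 1 and 146, 209 and 138 in replicate 3. CUL1.6 showed the same split at lower counts, with 924, 359 and 175 counts in replicate 2, 0, 41 and 0 in replicate 1, and 13, 21 and 0 in replicate 3. Without CUL1.9 the summed counts of replicate 2 were 1087, 501 and 301 at 0, 200 and 1500 µM, beside 224, 446 and 405 in replicate 1 and 114, 112 and 111 in replicate 3. In replicate 1 CUL1.10 was the leading guide, with 54.5%, 71.8% and 69.4% of the counts at 0, 200 and 1500 µM. The mean summed level of CUL1, 1013 ± 1525 normalised CPM at 0 µM (SD, n = 3), therefore describes no single library, and in single libraries CUL1 ranked between 33 and 1098 of 1117 genes. The median CUL1 guide had 0 to 17.5 counts in a library.

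SKP1, the adaptor that joins F-box proteins to CUL1, lay between RBX1 and RNF7 by mean level at each dose. Its 10 guides averaged 398 ± 195, 372 ± 31.2 and 427 ± 184 normalised CPM at 0, 200 and 1500 µM (SD, n = 3). The replicates overlapped between doses, and no SKP1 guide held over 36.1% of the gene's counts in a library. By mean level SKP1 ranked 141, 141 and 174 from the lowest of 1117 genes.

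The remaining scaffolds stood higher, with mean levels that ranked between 263 and 604 from the lowest of 1117 genes over the 3 doses. CUL9 lay between ranks 521 and 604, and CUL7 between 313 and 358. CUL3, the scaffold for BTB receptors such as KEAP1, averaged 750 ± 132, 571 ± 112 and 658 ± 124 normalised CPM at 0, 200 and 1500 µM (SD, n = 3). CUL5 averaged 655 ± 184, 814 ± 141 and 686 ± 66.3, and CUL7, which builds a ligase with the receptor FBXW8, averaged 721 ± 122, 636 ± 264 and 614 ± 167. CUL9, a large cullin also known as a cytoplasmic partner of p53, averaged 952 ± 97.0, 792 ± 140 and 802 ± 84.1. Some of these genes also leaned on 1 guide. CUL3.2 held 38.4% to 63.7% of CUL3 counts, CUL5.1 reached 60.0% of CUL5 counts in replicate 1 at 1500 µM, CUL5.6 50.7% in replicate 2 at 0 µM, and CUL7.3 reached 52.3% of CUL7 counts in replicate 2 at 0 µM. No CUL9 guide held over 33.8%.

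CAND1 and its paralogue CAND2, the exchange factors, had few zeros, 5 and 7 of 90 counts, where the median gene had 7. By mean level CAND1 ranked 213, 269 and 290 from the lowest of 1117 genes at 0, 200 and 1500 µM. CAND2 ranked 566, 411 and 511. CAND1 averaged 539 ± 121, 578 ± 178 and 592 ± 152 normalised CPM at 0, 200 and 1500 µM (SD, n = 3), and CAND2 averaged 915 ± 282, 710 ± 111 and 774 ± 130. CAND2 was the higher of the pair by mean at each dose, and the ranges of mean ± SD overlapped at every dose. CAND1.6 held 56.2% of CAND1 counts in replicate 3 at 1500 µM. At 0 µM the order by mean level ran CUL2, RBX1, SKP1, RNF7, CAND1, CUL5, CUL7, CUL3, CAND2, CUL9 and CUL1, and each neighbour in it overlapped the next within 1 SD.

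The highest dose was set against no drug to ask which of these targets changed the share of cells left after temozolomide. No member guide or gene passed. Of 93 tested member guides 0 were called in edgeR's quasi-likelihood test at an adjusted p under 0.05, and 0% of all 10337 tested guides were called. With the replicate number as a block 0 were called too, again against 0% of all guides. At an unadjusted p under 0.05 there was 1 member guide without the block, where the share of all guides was 0.203%, and there were 3 with it, where the share was 2.61%. DESeq2 with the block called 0 member guides, where 0.058% of all guides were called. Without the block it called 0 of the 88 member guides that it gave an adjusted p, where 0% of all guides were. At an unadjusted p under 0.05 DESeq2 had 4 member guides with the block, where 4.67% of all guides were, and 1 without it, where 0.59% were. Summed per gene, 0 of 11 members were called, where edgeR called 0% of all genes without the block and 0.0895% with it.

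In edgeR without the block the member genes' log2 fold changes at 1500 against 0 µM were within their errors, except for RNF7. Of these genes 5 were higher and 6 lower. They ran from -0.67 ± 1.29 (SE) for CUL1 to 0.53 ± 0.70 for CUL2 in edgeR without the block. RNF7 had 0.41 ± 0.33 and RBX1 -0.36 ± 0.70. The values were 0.26 ± 0.37 for CAND1, 0.21 ± 0.51 for SKP1, 0.20 ± 0.30 for CUL5, -0.06 ± 0.29 for CUL3, -0.11 ± 0.31 for CAND2, and -0.12 for CUL7 (SE 0.30) and for CUL9 (SE 0.27). Each had an adjusted p of 1.00. With the replicate block the error of each member gene shrank. RNF7 had 0.43 ± 0.19, with an unadjusted p of 0.0417 and an adjusted edgeR p of 0.739. It was the 1 member gene under 0.05 unadjusted, where 6.62% of all genes were. CUL1 at -0.24 ± 0.20, CAND1 at 0.25 ± 0.17, SKP1 at 0.25 ± 0.20 and CUL5 at 0.22 ± 0.18 (SE) also passed their errors. The other member genes did not. RNF7 was higher at 1500 than at 0 µM in all 3 replicate pairs, by 0.54, 0.11 and 0.26 on the log2(normalised CPM + 1) scale. Scaled by library totals RNF7 was not higher in replicate 2, with 1369 of 2544275 counts at 1500 µM and 1264 of 2309361 at 0 µM. Without the block the median over the 93 member guides was 0.10, beside -0.08 over all tested guides, and 49 were higher and 44 lower. The member median was -0.0026 without replicate 1 at 1500 µM and 0.017 with no count filter.

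Within replicate pairs, 16 of the 93 member guides were higher at 1500 than at 0 µM in all 3 pairs and 5 were lower in all 3. Of all tested guides 12.1% were higher and 12.6% lower in this way. The member counts were 14 and 5 when libraries were scaled by their totals and 16 and 7 with DESeq2 size factors, 2 scalings added after the data were seen. None of the 17 untested member guides had the same direction in all 3 pairs. The test needs 10 counts in 3 libraries, which leaves out guides that are scarce at every dose, so these counts describe the tested guides alone. Of the 93 tested member guides 14 met this filter only with the 1500 µM libraries, 9 only with those at 200 µM and 7 only with those at 0 µM, and some of them are in more than 1 of these counts. A guide that met it through the dose where it is high was bound to look higher there, and its separation is given as a description.

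A few guides separated the 3 libraries at 1500 µM from the 3 at 0 µM. CUL2.3, RBX1.1 and RNF7.7 were higher without overlap, where 1.42% of all tested guides were, and CUL2.4, CUL3.2 and SKP1.8 were lower, where 1.27% were. CUL2.3 and RBX1.1 met the count filter only through the 1500 µM libraries, and CUL2.4 only through those at 0 µM. CUL2.4 had 0 counts in each library at 1500 µM, against 32, 16 and 25 counts at 0 µM. Its mean level was at least 10.5-fold lower, counting 3 counts per library as the floor, and it was the 1 guide counted above at an unadjusted p under 0.05 without the block. CUL2.3, against the same gene, went the other way, with 45, 32 and 23 counts at 1500 µM and 4, 6 and 9 at 0 µM. Its log2 fold change was 2.04 ± 1.45 (SE), with an adjusted edgeR p of 1.00. RNF7.7 had 93, 73 and 247 counts at 1500 µM and 19, 50 and 65 at 0 µM, a log2 fold change of 1.33 ± 0.87 (SE) with an adjusted edgeR p of 1.00. CUL3.2, the most abundant CUL3 guide, had 784, 597 and 666 counts at 1500 µM and 553, 837 and 783 at 0 µM, and its groups separated as normalised CPM, at 279 to 285 against 337 to 402. Scaled by library totals, neither CUL3.2 nor RNF7.7 kept the 2 doses apart.

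Of these guides, past a log2 ratio of 1 in all 3 pairs were RBX1.1 upward, where 0.697% of all tested guides were, and CUL2.4 downward, where 0.522% were. RBX1.1 had 22, 31 and 23 counts at 1500 µM and 0, 12 and 8 at 0 µM. Among the other guides of lowest p, CUL1.6 had a log2 fold change of -2.95 ± 0.80 (SE) with the block and an adjusted edgeR p of 0.999, and -2.46 ± 2.74 without it. CUL9.10 had -0.996 ± 0.35 with the block (adjusted edgeR p of 0.999) and 171, 387 and 302 counts at 1500 µM against 279, 483 and 565 at 0 µM. CUL3.6 had 1.28 ± 0.96 and SKP1.6 0.80 ± 0.67 (SE) without the block, and RNF7.5 had 0.84 ± 0.53 with it. No member gene kept its 2 doses apart in summed level, where 0.806% of all genes were higher and 2.06% lower without overlap.

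At 200 against 0 µM no member guide and no member gene passed either. Of 93 guides 0 were called in edgeR without or with the block, where 0% of all guides were called, and DESeq2 called 0 with the block, where 0.058% of all guides were called. Without the block DESeq2 called 0 of the 86 member guides with an adjusted p, where 0% of all guides were. It had 0 member guides at an unadjusted p under 0.05 in both fits, where 4.09% of all guides were with the block and 0.387% without it. At an unadjusted p under 0.05 there were 0 member guides without the block and 0 with it, where 0.135% and 2.23% of all guides were. Of 11 genes edgeR called 0 without or with the block, where 0% of all genes were called. DESeq2 with the block called 0 of the 11, where 0.0895% of all genes were called. Without the block it called 0 of the 10 with an adjusted p, where 0% of all genes were. The median over member guides was -0.11, beside -0.09 over all guides, with 39 higher and 54 lower. In all 3 pairs 5 member guides were higher and 10 lower, where 10.1% and 13.8% of all tested guides were. The member counts turned round to 12 higher and 6 lower when libraries were scaled by their totals, and those of all tested guides turned likewise, to 15.5% higher and 8.46% lower. Of the 17 untested members 1 was higher in all 3 pairs and 0 were lower.

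The gene that differed most beside its error at 200 µM was CUL5. It had 1657, 1886 and 2081 counts at 200 µM, against 874, 1804 and 1151 at 0 µM, and the groups overlapped as normalised CPM. The log2 fold change was 0.42 ± 0.30 (SE) without the block, with an adjusted edgeR p of 0.998, and 0.44 ± 0.15 with it, with an unadjusted p of 0.0169 and an adjusted edgeR p of 0.811. CUL5 was the 1 member gene under 0.05 unadjusted with the block, where 5.37% of all genes were. The log2 ratios of the 3 pairs were 0.46, 0.17 and 0.37, yet 0 of its 9 tested guides were higher in all 3 pairs. The other genes ran from -0.44 ± 1.29 (SE) for CUL1 to 0.61 ± 0.77 for CUL2, and CUL3 had -0.29 ± 0.28. RNF7 had 0.23 ± 0.32, CAND1 0.21 ± 0.39, CAND2 -0.26 ± 0.31 and CUL9 -0.17 ± 0.28. CUL7 had -0.09 ± 0.35, RBX1 0.06 ± 0.73 and SKP1 -0.02 ± 0.45 (SE), all without the block.

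Single guides showed little at 200 µM. CAND2.1 and CUL3.2 were lower without overlap, where 1.12% of all tested guides were, and 0 member guides were higher without overlap, where 1.29% were. Scaled by library totals CUL3.2 did not keep these 2 doses apart either. Past a log2 ratio of 1 in all 3 pairs there were 0 tested member guides in either direction, where 0.474% of all tested guides were higher and 0.638% lower. CUL7.5 had 295, 152 and 105 counts at 200 µM against 438, 172 and 222 at 0 µM, a log2 fold change of -0.91 ± 0.40 (SE) with the block and an adjusted edgeR p of 1.00. CUL9.1 was at 0 in each library at 200 µM, against 0, 19 and 0 counts at 0 µM, so it rests on a single library. CUL1.8 had 14, 0 and 0 counts at 200 µM against 60, 0 and 49 at 0 µM, and RNF7.4 had 25, 9 and 112 against 23, 60 and 240. CUL2.9 had 14, 0 and 23 counts at 200 µM against 1, 3 and 3 at 0 µM, and it met the count filter only with the libraries at 200 and 1500 µM. None of these 3 guides separated the doses. Of summed member genes 0 were without overlap, where 0.448% of all genes were higher and 1.52% lower.

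Both comparisons with 0 µM share the libraries of that dose, and their values stand side by side without a test between them. For RNF7 the edgeR log2 fold change was 0.23 at 200 and 0.41 at 1500 µM, for CUL2 0.61 and 0.53, for CUL5 0.42 and 0.20, for CUL3 -0.29 and -0.06, and for RBX1 0.06 and -0.36. The difference between the doses was tested as 1500 against 200 µM. There 0 of 93 member guides and 0 of 11 member genes were called in edgeR, without or with the block, and 0% of all guides and genes were. DESeq2 with the block had 15 of 93 member guides, or 16.1%, at an unadjusted p under 0.05, where 10.2% of all guides were. It gave an adjusted p to 29 of the 93 and called 0 of them, where 0.416% of all guides were called, and 10 of the 15 were among the 64 guides with none. Without the block DESeq2 had 2 member guides under 0.05, where 0.319% of all guides were, and called 0 of the 88 with an adjusted p, where 0% of all guides were called.

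At 1500 against 200 µM 2 member guides had an unadjusted edgeR p under 0.05 without the block, where 0.203% of all guides did, and 2 with it, where 1.95% did. With the block 0 member genes did in edgeR, where 6.62% of all genes did. DESeq2 with the block had 2 of 11 member genes under 0.05 unadjusted, where 12.4% of all genes were. These were CUL1 at -0.30 ± 0.14 and CUL5 at -0.25 ± 0.12 (SE), with DESeq2 adjusted p of 0.325 and 0.339. Both guides of the edgeR fit without the block belonged to CUL9 and pointed opposite ways. CUL9.1 had 45, 17 and 19 counts at 1500 µM and 0 in each library at 200 µM, at least 8.19-fold higher with 3 counts per library as the floor. CUL9.4 had 0 counts in each library at 1500 µM and 27, 0 and 139 counts at 200 µM. Its mean level was at least 16.2-fold lower, carried mostly by replicate 3, and the 2 doses overlapped at 0. CUL9.1 met the count filter only through the 1500 µM libraries, and CUL9.4, with 10, 0 and 0 counts at 0 µM, only with those at 200 and 0 µM, so both entered the test through libraries where they were high. The 10 CUL9 guides together had a log2 fold change of 0.04 ± 0.25 (SE). With the block the lowest p-values were those of CUL1.6, with -3.67 ± 1.37 (SE), and CUL7.3, with -0.81 ± 0.33, each with an adjusted edgeR p of 1.00.

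Besides CUL9.1, the guides that separated the 2 doses had smaller fitted changes, between -1.02 for CAND1.10 and 2.04 for CUL5.10 on the log2 scale. CUL5.9, CUL5.10 and CUL9.1 were higher without overlap, where 1.53% of all tested guides were, and CAND1.10 was lower, where 1.16% were. Past a log2 ratio of 1 in all 3 pairs were CUL3.7 and CUL9.1 upward, where 0.658% of all tested guides were, and CUL1.6 downward, where 0.426% were. The untested guide RBX1.5 was past it downward too, with 0 counts in each library at 1500 µM and 36, 8 and 20 at 200 µM. CUL9.8, among the guides of lowest p with the block, had 236, 269 and 300 counts at 1500 µM and 94, 231 and 75 at 200 µM, with overlap as normalised CPM. CUL3.7 had 22, 36 and 76 counts at 1500 µM and 0, 0 and 32 at 200 µM. Of member guides 11 were higher and 13 lower in all 3 pairs, where 13.3% and 11.5% of all tested guides were, and 1 untested member was lower. The median over member guides was 0.08, beside 0.01 over all guides, and it turned to -0.037 with DESeq2 and the block and to -0.029 with library totals. Gene values ran from -0.44 ± 0.58 (SE) for RBX1 to 0.22 ± 0.40 for SKP1 and 0.22 ± 0.26 for CUL3, with CUL5 at -0.23 ± 0.24 and CUL1 at -0.24 ± 1.16. RNF7 had 0.17 ± 0.28, CAND2 0.14 ± 0.25, CAND1 0.04 ± 0.37, CUL7 -0.03 ± 0.34 and CUL2 -0.09 ± 0.78. No summed gene was without overlap, where 0.895% of all genes were higher and 0.358% lower.

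Guides against 1 gene shared a direction in all 3 pairs for at most 3 guides per gene and direction. At 1500 against 0 µM, 3 of 10 tested CAND1 guides were higher and 0 lower in all 3 pairs. The next highest counts were 2 higher guides, for CUL2 and SKP1 beside 1 lower, and for CUL5 and RNF7 beside 0 lower. CUL9 had 1 higher and 2 lower. At 200 against 0 µM 0 of 9 tested guides were higher and 3 lower for CAND2 and for CUL3. At 1500 against 200 µM 0 of 7 were higher and 3 lower for CUL1, and 2 of 9 were higher and 3 lower for CUL5. The shares over all tested guides are those given above for each comparison. At 1500 against 0 µM the SD over tested guides of the mean log2 pair ratio was 0.44 for CAND2 and 2.001 for CUL2, and the other 9 genes lay between.

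Other genes of the pathway were read from a list of 37 symbols, of which 29 had guides in the table, with 290 guides. In edgeR 0 of 258 tested guides and 0 of 29 summed genes passed in the 3 comparisons, whether or not the block was used. With DESeq2 and the block, DCUN1D1.3, against a co-factor of NEDD8 attachment, was higher at 1500 than at 0 µM, with a log2 fold change of 2.89 ± 0.53 (SE, DESeq2 adjusted p of 0.000168), where 0.058% of all guides were called. At 1500 against 200 µM CCNF.5 was lower, where 0.416% of all guides were called, and so were the summed genes BTRC, CCNF and KLHL3, receptors of CUL1 and CUL3 ligases, by -0.35 ± 0.09, -0.38 ± 0.11 and -0.30 ± 0.08 (SE, DESeq2 adjusted p of 0.0182, 0.0389 and 0.0389), where 2.15% of all genes were called. Summed over its guides, DCUN1D1 averaged 3547.55 ± 2379.18 normalised CPM at 0 µM and 16624.7 ± 14742.5 at 1500 µM (SD, n = 3). Of its 90 counts 31 were 0. At 0 µM 4 of the 29 genes were among the lowest 111 of the screen by mean level, beside 2 of the 11 members. NAE1 and UBA3, the subunits of the NEDD8-activating enzyme, averaged 107 ± 36.5 and 201 ± 68.4 normalised CPM there, DDB1, the CUL4 adaptor, 239 ± 92.5, and UBE2M, a NEDD8-conjugating enzyme, 245 ± 76.4 (SD, n = 3).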

How the data were processed

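Raw counts of sgRNAs in 9 libraries were deposited by the authors as 1 table. Per the submitters' processing notes, cutadapt 1.18 and MAGeCK 0.5.8 were used and hg19 was the build named. Of mismatch settings and guide filters the sources used here say nothing. Fits ran over the whole table, and member rows were then read. Guides, or counts summed per target gene, with at least 10 counts in at least 3 libraries were tested, for each pair of doses, with the quasi-likelihood test of edgeR 4.0.16 (TMM, robust, R 4.3.3) on 6 libraries, adjusted by Benjamini-Hochberg at 0.05. The SE was taken as the size of the log2 fold change divided by the root of its F statistic. DESeq2 1.42.0, the replicate block, other scalings, other filters, all 9 libraries and each library left out were alternatives. The code was tested on simulated data, and the pass mark covered only fits with the replicate block at the lower simulated spread. The edgeR fit without the block was not judged by it. Python 3.11.15 with scipy 1.17.1 gave levels and exact intervals.

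Replicate numbers, from the titles, were taken to pair libraries, since deviations from dose means correlated at 0.67 to 0.78 across guides in all 9 pairs of libraries with the same number. No 2 libraries were identical. All 11 member symbols matched RefSeq's GRCh38.p14 gene table.

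The members, the pathway list and the tests were chosen with earlier results of these data known. Guides were named if they passed a test, were among the 3 of lowest p per direction with or without the block, passed a log2 ratio of 1 in all 3 pairs, or held over 50% of their gene's counts in a library. Guides named for not overlapping between doses were chosen after their values were seen.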

Additional observations from a re-analysis of the deposited data

How the results depend on the processing

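No member guide and no member gene was called in any pair of doses in edgeR or under any alternative run: the replicate block, DESeq2 with or without it, other size factors, library totals, no count filter, at least 50 counts, all 9 libraries, or any 1 library left out. Of all genes, DESeq2 with the block called 0.269% at 1500 against 0 µM, 0.0895% at 200 against 0 µM and 2.15% at 1500 against 200 µM. In the same order, it called 0.058%, 0.058% and 0.416% of all guides. DESeq2 without the block called 0.0895%, 0% and 0.0895% of all genes. EdgeR with the block called 0.0895% of all genes at 1500 against 0 µM. DESeq2 with the block gave an adjusted p at 1500 against 200 µM to 29 of 93 member guides and to 8 of 11 genes, not to CUL2, RBX1 and SKP1, so that fit says nothing of the others. DESeq2 without the block gave one to 86 to 88 guides, and none to CUL1 in both comparisons with 0 µM. The replicate block changed no call of a member. What changed was the sign of values smaller than their errors, and the cause was not tested.

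The median member guide at 1500 against 0 µM was -0.071 with at least 50 counts. At 200 against 0 µM it was -0.023 with the replicate block, -0.082 with DESeq2, -0.058 with DESeq2 and the block, -0.082 with DESeq2 size factors, 0.057 with library totals, -0.088 with at least 50 counts and -0.086 with all 9 libraries. With 1 library left out it lay between -0.0026 and 0.20 at 1500 against 0 µM, between -0.35 and 0.0046 at 200 against 0 µM, and between 0.039 and 0.30 at 1500 against 200 µM, where it was 0.0069 with the replicate block, -0.037 with DESeq2 and the block and -0.029 with library totals. Scaling by library totals moved the median of all tested guides to 0.09 at 200 against 0 µM and to -0.13 at 1500 against 200 µM, and the member guides split into 48 higher and 45 lower, and 43 higher and 50 lower. With that scaling 12 member guides were higher and 6 lower in all 3 pairs at 200 against 0 µM, where 15.5% and 8.46% of all tested guides were, an alternative chosen after seeing the data.

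With the replicate block, and with DESeq2 and the block, CUL1 was at 0.030 and 0.047 and SKP1 at 0.11 and 0.12 at 200 against 0 µM. CUL2 was at 0.038 and 0.023 at 1500 against 200 µM, and CUL7 at 0.0096 there with the block. With library totals SKP1 was at 0.012 at 200 against 0 µM, and CAND1, CAND2 and CUL9 at -0.076, -0.0094 and -0.10 at 1500 against 200 µM. SKP1 was at 0.0016 at 200 against 0 µM with all 9 libraries.

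The fits with 1 library left out in turn were run in edgeR without the replicate block. At 1500 against 0 µM CUL1 ranged from -2.75 to 2.12, CUL2 from -0.11 to 0.94, RBX1 from -0.79 to 0.62, SKP1 from -0.28 to 0.79, CAND1 from -0.023 to 0.54, CAND2 from -0.27 to 0.092 and CUL3 from -0.16 to 0.041. At 200 against 0 µM CUL1 ranged from -2.38 to 2.39, RBX1 from -0.36 to 1.07, SKP1 from -0.26 to 0.56, CAND1 from -0.12 to 0.50 and CUL7 from -0.34 to 0.18. At 1500 against 200 µM CUL1 ranged from -2.31 to 1.69, CUL2 from -0.73 to 0.49, SKP1 from -0.27 to 0.43, CAND1 from -0.25 to 0.39, CUL7 from -0.29 to 0.21 and CUL9 from -0.036 to 0.10. Among guides CUL1.6 ranged from -11.36 to 3.05 at 1500 against 0 µM and from -10.36 to 1.08 at 1500 against 200 µM, and CUL7.3 from -0.86 to 1.88 at 200 against 0 µM and from -2.06 to 0.71 at 1500 against 200 µM. CAND1.10 ranged from -0.10 to 2.10 at 200 against 0 µM. CUL9.4 at 1500 against 0 µM ranged from -5.79 to 0, and CUL9.1 at 200 against 0 µM from -6.36 to 0, since each had counts in 1 of those 6 libraries. CUL7.5 ranged from -1.40 to -0.24 at 200 against 0 µM, RNF7.7 from 0.58 to 1.67 at 1500 against 0 µM and CUL3.7 from 1.69 to 8.45 at 1500 against 200 µM. Low counts limit what can be said of CUL2, RBX1 and CUL1, whose guides were often at 0 counts, and the cause of these zeros was not tested.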
